A study of Laodelphax striatellus with 6 samples.

Results

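The glutathione, antioxidant and iron-handling proteins of the small brown planthopper, Laodelphax striatellus, a sap-feeding pest of rice, were followed in whole wild-type insects. Controls gave 3 libraries, and insects given β-asarone, a phenylpropanoid of sweet flag, gave another 3. The labels state neither dose, exposure time, age, stage or sex nor whether replicates came from separate insects, so the spread between libraries may be technical. Members were the assembled genes whose protein description contains the name of such a protein, and 63 of 59004 listed genes met this rule. Of these, 60 refer in their description to such a protein or to glutathione, though some, like the copper chaperone for superoxide dismutase, are another protein. The other 3 are regulators of pyruvate dehydrogenase, caught because the word "acetyl-transferring" holds the letters of transferrin. No description named metallothionein or heme oxygenase. A further limit is that 73.4% of the 25802 described genes are described only as hypothetical or uncharacterized proteins, and these cannot be found by name.

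Animal cells keep superoxide and peroxides low with a few linked systems. Superoxide dismutases turn superoxide into hydrogen peroxide, which catalase, peroxiredoxins and glutathione peroxidases remove. Glutathione, a tripeptide made by glutamate-cysteine ligase and glutathione synthetase, also serves glutathione S-transferases, which couple it to plant toxins and insecticides in insects. Thioredoxin and glutaredoxin hand on the reducing power, and in Drosophila thioredoxin reductase also keeps glutathione reduced, in place of a glutathione reductase. Ferritin and transferrin bind iron, which otherwise feeds the formation of hydroxyl radicals.

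Values are TPM, each gene's length-corrected share of its library, so levels can be compared between genes, and the read depth behind them is unknown. The libraries were not equal. Tested genes had a median of 2.23 TPM in control replicate 2 and of 2.85 to 3.37 TPM in the others. Asarone replicate 2 held 560 genes found in it only, defined as 2 TPM or more there, with no other library above 5% of that level. Over the whole table such genes were not counted for the other libraries. Of the marker lists for the labelled whole body, muscle genes summed to 1930 to 2947 TPM, epidermal genes to 6867 to 18490 TPM and gut genes to 85.7 to 92.2 TPM. Nervous system markers reached 1.23 to 10.02 TPM, male germ line markers 10.2 to 16.8 TPM, and the 2 fat body and oocyte genes, named for yolk and hexamerin proteins, 1.17 to 2.27 TPM.

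No member passed the test of treated against control insects, which addresses the response to β-asarone. Of the 63 members, 46 averaged 1 TPM or more across all 6 libraries and were tested, and 17 with means up to 0.945 TPM were not. Limma on log2(TPM + 1), adjusted over all 24816 tested genes, called 0 members at an adjusted p under 0.05, where 0.00403% of all tested genes were called. The smallest adjusted p of a member was 0.98, and 0 members had an unadjusted limma p under 0.05, where 1.99% of all tested genes did in the higher and 1.47% in the lower direction. In whole-body samples, fewer cells of a type and less RNA per cell cannot be told apart.

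Of the 46 tested members, 22 had a higher and 24 a lower mean log2 level in treated insects, a share of 52.2% lower, against 37.2% of all tested genes. With median-of-ratios or trimmed-mean scaling the split became 16 and 30, and with quantile normalization 19 and 27. The median log2 change was -0.02 over the tested members and 0.08 over all tested genes. Groups did not overlap for 2 members on the higher side and 4 on the lower side, where 4.53% and 4.14% of all tested genes did so, and 8.66% in either direction. Of the 4 lower ones 3 have best hits outside planthoppers, 14.3% of the 21 tested members of that kind not found in 1 library only, and 18.4% of all such tested genes had no overlap on the lower side. All 63 members together summed to 1656 ± 50.4 TPM in the controls and 1701 ± 84.5 TPM after β-asarone (SD, n = 3), a ratio of 1.03.

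**Figure D1:**
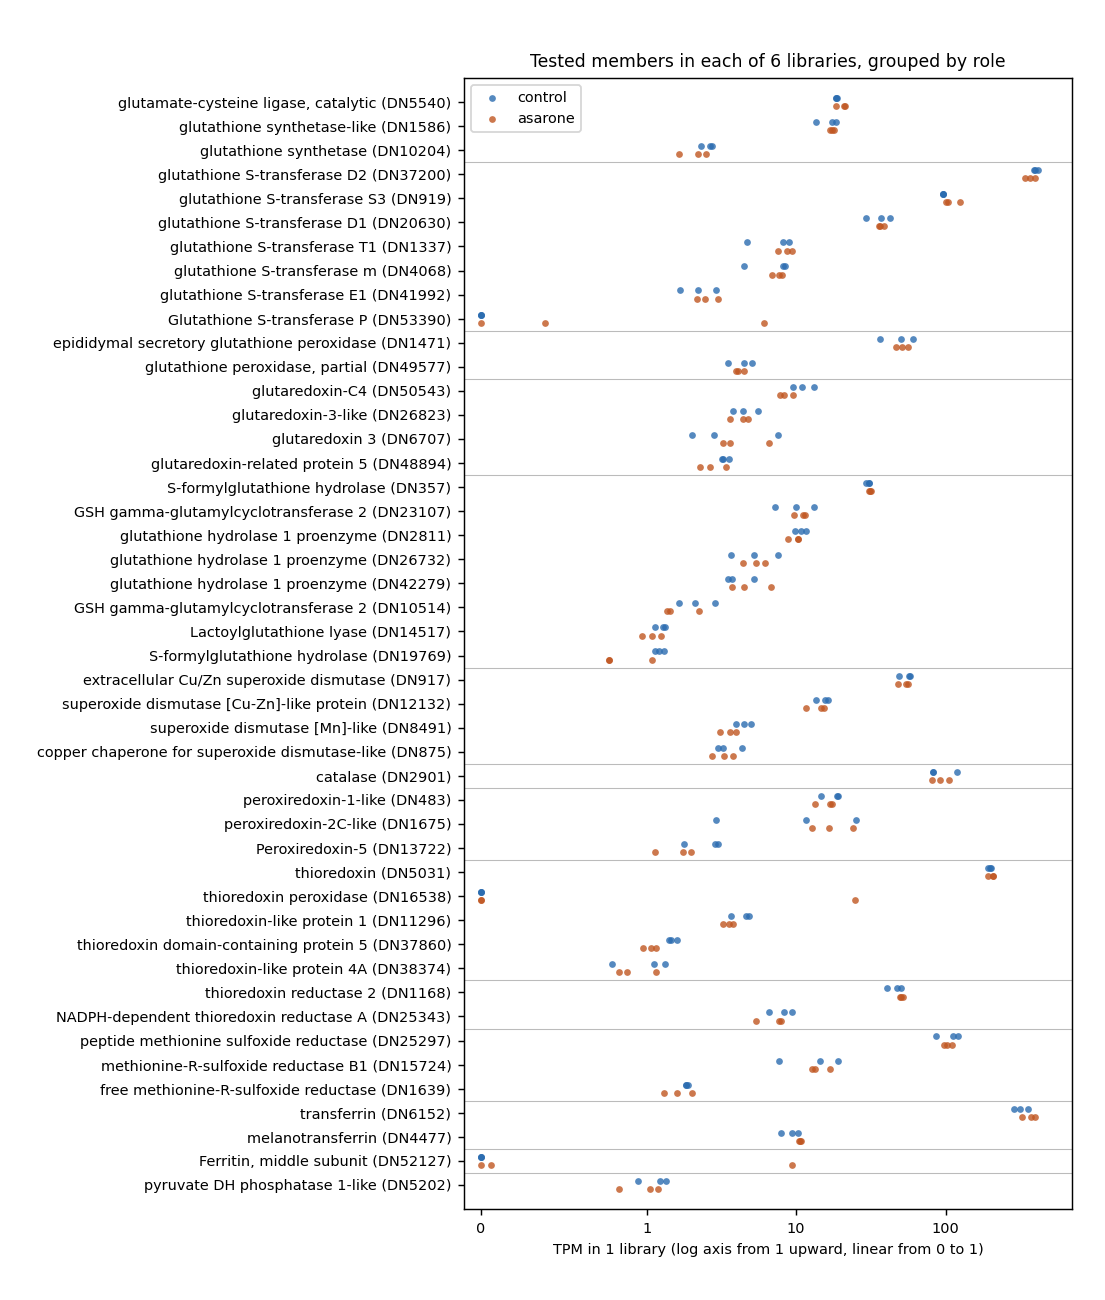
TPM of the 46 tested members in each library, grouped by role, on an axis that is linear from 0 to 1 and logarithmic above. Each point is 1 library, blue for the 3 control and orange for the 3 asarone libraries; the points of both groups lie close together for the abundant members, while 3 members are listed at 0 in all control libraries and reach several TPM in 1 asarone library.

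Most of the summed level came from a few genes. Glutathione S-transferase D2, transferrin and mitochondrial thioredoxin together made up 52.9% to 58.2% of the members' summed TPM in each of the 6 libraries. Means over the 6 libraries were at least 100 TPM for 5 members, from 10 to under 100 TPM for 14, and from 1 to under 10 TPM for 27. For the 25 members averaging 5 TPM or more, the highest library was a median of 1.42 times the lowest. Over the 8190 genes of that level with no 0, this ratio had a median of 1.75. The spread of single members ran from 1.08 times for S-formylglutathione hydrolase, which detoxifies formaldehyde bound to glutathione, to 8.64 times for peroxiredoxin-2C-like.

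Glutathione synthesis was represented by both of its enzymes. The catalytic subunit of glutamate-cysteine ligase (TRINITY_DN5540_c0_g1), which performs the first and rate-limiting step, stood at 18.75, 18.34 and 18.55 TPM in control replicates 1, 2 and 3 and at 21.09, 18.61 and 20.76 TPM in the asarone replicates in the same order. The control values were nearly equal, with an SD of 0.205 TPM (n = 3), and asarone replicate 2 lay among them while the other treated libraries were higher. Its log2 change was 0.11 (SE 0.12, 95% limma interval -0.18 to 0.41), and 0.0081 after median-of-ratios, 0.022 after trimmed-mean and 0.06 after quantile scaling. Glutathione synthetase (TRINITY_DN1586_c0_g1), the second enzyme, stood at 17.42, 13.57 and 18.38 TPM in the controls and 16.82, 17.89 and 17.25 TPM after β-asarone. Only control replicate 2 was low, and the sign of its log2 change of 0.08 (SE 0.15) turned without it and after median-of-ratios and trimmed-mean scaling. Both enzymes were thus at similar levels, and the ratio of ligase to synthetase was 1.15 ± 0.181 in the controls and 1.17 ± 0.112 in treated insects (SD, n = 3). A second synthetase gene (TRINITY_DN10204_c0_g1), with a moth as best hit, was less abundant, at 2.57 ± 0.236 and 2.12 ± 0.429 TPM (SD, n = 3). The glutathione reductase-like gene (TRINITY_DN51242_c0_g1), with a fungus gnat as best hit, averaged 0.877 TPM and was not tested, like a second ligase gene (TRINITY_DN6921_c0_g1) with a barnacle as best hit at 0.863 TPM.

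Glutathione S-transferases had 10 members, 7 of them tested. Their sum was 552 ± 19.4 TPM in the controls and 536 ± 31.1 TPM after β-asarone (SD, n = 3). The most abundant, of the delta class that is particular to arthropods and often tied to insecticide metabolism, was D2 (TRINITY_DN37200_c1_g1). It stood at 414.76, 391.67 and 397.84 TPM in control replicates 1, 2 and 3 and at 342.39, 367.57 and 394.61 TPM in the asarone replicates. Asarone replicates 1 and 2 lay below all controls, asarone replicate 3 overlapped them, and the log2 change was -0.13 (SE 0.12, limma adjusted p = 0.98). It was -0.08 without asarone replicate 1, -0.23 after median-of-ratios, -0.22 after trimmed-mean and -0.05 after quantile scaling. The sigma-class enzyme S3 (TRINITY_DN919_c0_g1) stood at 95.59, 95.62 and 96.84 TPM in the controls and 101.42, 124.31 and 104.50 TPM after β-asarone. These groups did not overlap, and asarone replicate 2 was the furthest above the controls. The log2 change of S3 was 0.19 (SE 0.13, 95% limma interval -0.13 to 0.51, adjusted p = 0.98), and the adjusted p ranged from 0.679 to 1.00 over its alternatives. The log2 change was 0.10 without asarone replicate 2, 0.08 after median-of-ratios and 0.10 after trimmed-mean scaling. The ratio of D2 to S3, chosen after the values were seen, was 4.34, 4.10 and 4.11 in control replicates 1, 2 and 3. In the asarone replicates it was 3.38, 2.96 and 3.78. The groups did not overlap in this ratio, but they did not in S3 alone either. How often other pairs of genes do so was not computed.

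The other transferases were less abundant. Glutathione S-transferase D1 (TRINITY_DN20630_c0_g1) was at 36.3 ± 6.51 TPM in the controls and 37.0 ± 1.33 TPM after β-asarone (SD, n = 3). T1, m and E1 (TRINITY_DN1337_c0_g1, TRINITY_DN4068_c0_g1 and TRINITY_DN41992_c0_g1) had means over the 6 libraries of 7.93, 7.27 and 2.41 TPM, and their log2 changes of 0.25, 0.12 and 0.13 were smaller than or about the size of their standard errors of 0.24, 0.24 and 0.21. Of the 7 tested transferases 6 were higher and 1 lower after β-asarone, 5 and 2 under each of the 3 other scalings, and 4 and 3 without control replicate 2. Of all tested genes 37.2% were lower. The 6 transferases with a planthopper best hit split into 5 higher and 1 lower, where 29.7% of all such tested genes were lower. The 6 higher ones include glutathione S-transferase P, described next. Glutathione S-transferase P (TRINITY_DN53390_c0_g1), with a sea louse as best hit, was listed at 0 in all 3 controls and at 0.39, 6.09 and 0 TPM in the asarone replicates, so a single library sets its mean. The 3 members left untested were a second D2 gene at 0.42 TPM in asarone replicate 1 and 0 elsewhere, and 2 genes with a sponge or a sea anemone as best hit. The sponge-like one (TRINITY_DN20895_c0_g3) was the only member listed at 0 in all 3 treated libraries, against 2, 0.77 and 0 TPM in control.

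Glutathione peroxidases, which reduce peroxides with glutathione, summed to 53.4 ± 11.1 TPM in the controls and 55.6 ± 4.58 TPM after β-asarone (SD, n = 3). Nearly all of this was a gene described as epididymal secretory glutathione peroxidase (TRINITY_DN1471_c0_g1), a name taken from a mammalian protein. It stood at 60.14, 36.54 and 50.59 TPM in the controls and 56.37, 46.84 and 51.19 TPM after β-asarone. Replicate 1 was the highest and replicate 2 the lowest in both groups, the treated values lay inside the control range, and the sign of the log2 change of 0.09 (SE 0.21) turned without control replicate 2 and after median-of-ratios and trimmed-mean scaling. The other member (TRINITY_DN49577_c0_g1), with an aphid as best hit, was at 4.34 ± 0.774 and 4.17 ± 0.290 TPM (SD, n = 3).

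Glutaredoxins, small glutathione-dependent oxidoreductases, held the member with the smallest p. Glutaredoxin-C4 (TRINITY_DN50543_c0_g1), with a carpenter ant as best hit, stood at 9.59, 13.20 and 10.88 TPM in the controls and 7.74, 9.48 and 8.26 TPM after β-asarone. The groups did not overlap, although asarone replicate 2 and control replicate 1 nearly met. Its log2 change was -0.36 (SE 0.17, 95% limma interval -0.76 to 0.04, adjusted p = 0.98), with adjusted p-values of 0.675 to 1.00 over the alternatives, and it ranked 1244 by p among the tested genes. Glutaredoxin-3-like (TRINITY_DN26823_c0_g1), of a family that handles iron-sulfur clusters in the cytosol, was at 4.57 ± 0.885 and 4.26 ± 0.573 TPM (SD, n = 3). Its log2 change of -0.08 turned to 0.04 without control replicate 2 and to 0.01 without asarone replicate 1. A second glutaredoxin 3 gene (TRINITY_DN6707_c0_g1), with a weevil as best hit, stood at 7.60, 2.84 and 2 TPM in the controls and 6.54, 3.59 and 3.26 TPM after β-asarone, so replicate 1 was far above the rest in both groups. The mitochondrial glutaredoxin-related protein 5 (TRINITY_DN48894_c0_g1) was at 3.32 ± 0.203 and 2.78 ± 0.554 TPM (SD, n = 3). Glutaredoxin 2 (TRINITY_DN52936_c0_g1), with a nematode as best hit, averaged 0.945 TPM and was not tested. The role summed to 24.2 ± 1.92 TPM in the controls and 20.9 ± 0.940 TPM after β-asarone (SD, n = 3), with all control libraries at 22.03 TPM or above and all treated ones at 21.85 TPM or below. Without a test, as for every sum here, the ratio of 0.862 is a description of these libraries. No glutaredoxin had a planthopper best hit. Of all tested genes with another best hit, not found in 1 library only, 75.7% were lower, and 18.4% had no overlap on the lower side.

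The other enzymes named for glutathione or its conjugates, 11 members, summed to 67.3 ± 4.54 TPM in the controls and 67.2 ± 3.28 TPM after β-asarone (SD, n = 3). The steadiest was S-formylglutathione hydrolase (TRINITY_DN357_c0_g1), at 30.51, 30.96 and 29.44 TPM in the controls and 31.27, 31.70 and 30.62 TPM after β-asarone. All values lay within a narrow band. Of all genes averaging 5 TPM or more with no 0, 0.159% had a smaller ratio of highest to lowest library. The sign of the log2 change of 0.04 (SE 0.11) turned under each of the 3 other scalings. A second gene of that name (TRINITY_DN19769_c0_g3), with an ant as best hit, stood at 1.14, 1.31 and 1.21 TPM in the controls and 1.08, 0.77 and 0.77 TPM after β-asarone without overlap (log2 change -0.25, SE 0.22). Glutathione-specific gamma-glutamylcyclotransferase 2 (TRINITY_DN23107_c0_g1), which degrades glutathione in the cytosol, was at 10.1 ± 3.01 and 10.8 ± 1.01 TPM (SD, n = 3). Its log2 change of 0.11 turned to -0.09 without control replicate 2. Glutathione hydrolase 1, which degrades glutathione outside the cell, was split over 3 tested genes with planthopper best hits at 10.3, 5.41 and 4.58 TPM over the 6 libraries. Their log2 changes were -0.13, 0.01 and 0.20, with standard errors of 0.14, 0.26 and 0.24. A second gamma-glutamylcyclotransferase 2 gene (TRINITY_DN10514_c0_g1) and a lactoylglutathione lyase (TRINITY_DN14517_c0_g1), which disposes of methylglyoxal, averaged 1.94 and 1.18 TPM. The other 3 members of this role, with a nematode, a mite and a sea urchin as best hits, averaged 0.667, 0.54 and 0.37 TPM and were not tested.

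**Figure D2:**
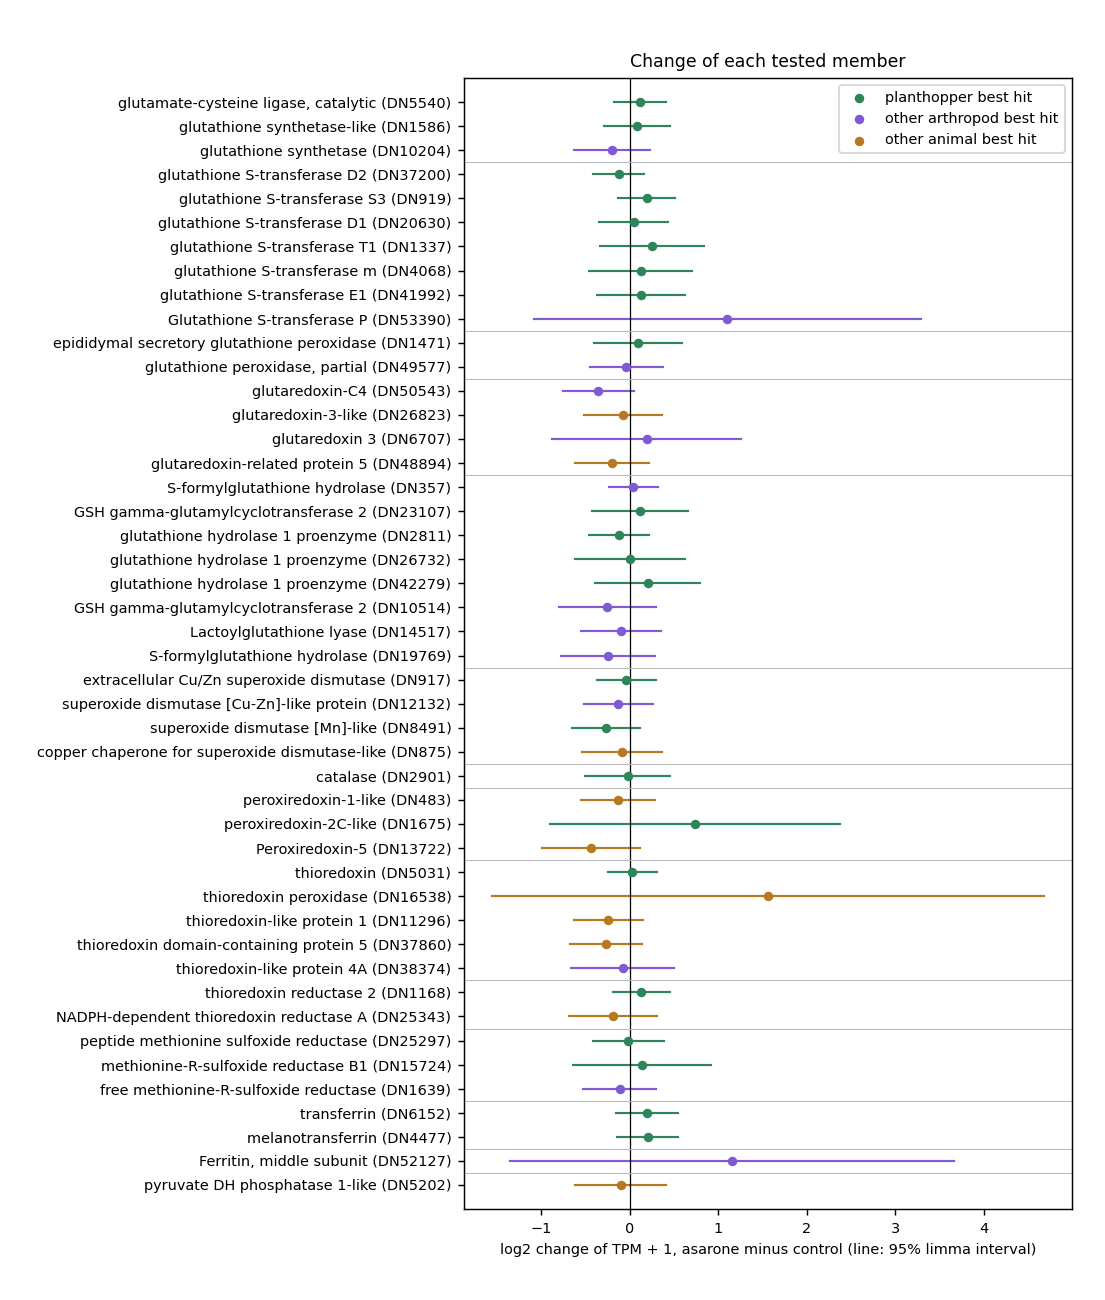
Log2 change of each tested member (asarone minus control, on log2(TPM + 1)), with its 95% limma interval as a line and the best hit as colour. Every interval crosses 0; the widest belong to members found almost only in asarone replicate 2 and to peroxiredoxin-2C-like.

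All 4 tested members with superoxide dismutase in their description were lower in treated insects, under the deposited scaling and under each of the 3 others, and none passed the test. With control replicate 2, asarone replicate 2 or asarone replicate 3 left out, 3 were lower and 1 higher. With the deposited scaling 37.2% of all tested genes were lower. Of the 4 members 2 had a planthopper best hit, and 29.7% of all such tested genes were lower. The others had another best hit, where 75.7% of such genes, not found in 1 library only, were lower. The extracellular copper-zinc enzyme (TRINITY_DN917_c0_g1) was the most abundant, at 57.49, 57.33 and 48.81 TPM in the controls and 56.38, 47.91 and 54.46 TPM after β-asarone. One low library in each group set its spread, and the log2 change of -0.04 (SE 0.14) turned to 0.03 without asarone replicate 2. A second copper-zinc gene (TRINITY_DN12132_c0_g2), with an aphid as best hit, stood at 13.50, 16.42 and 15.70 TPM and at 11.61, 14.58 and 15.43 TPM, so replicate 1 was the lowest in both groups. The mitochondrial manganese enzyme (TRINITY_DN8491_c0_g1) was less abundant, at 3.97, 4.99 and 4.50 TPM in the controls and 3.11, 3.61 and 3.95 TPM after β-asarone. The groups met without overlapping, at 3.97 and 3.95 TPM. Its log2 change was -0.27 (SE 0.16, 95% limma interval -0.66 to 0.12, adjusted p = 0.98). The copper chaperone (TRINITY_DN875_c0_g1), which loads copper into the copper-zinc enzyme and has a scallop as best hit, was at 3.52 ± 0.709 and 3.25 ± 0.511 TPM (SD, n = 3). A second manganese gene (TRINITY_DN16755_c0_g1), with a beetle as best hit, averaged 0.465 TPM and was not tested. The role, with the copper chaperone included, summed to 78.2 ± 5.36 and 74.1 ± 3.21 TPM (SD, n = 3).

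Catalase (TRINITY_DN2901_c0_g1), which splits hydrogen peroxide in peroxisomes, stood at 119.57, 82.59 and 82.77 TPM in the controls and 80.60, 91.74 and 105.00 TPM after β-asarone. Control replicate 1 was the highest library and the other values overlapped. The log2 change of -0.02 (SE 0.20, 95% limma interval -0.50 to 0.45) turned to 0.15 without control replicate 1 and to 0.07 without asarone replicate 1. A fragment described as a bacterial-type catalase hydroperoxidase (TRINITY_DN49556_c0_g1) was listed at 3.64 TPM in asarone replicate 2 and at 0 in the other 5 libraries, and a catalase-like fragment (TRINITY_DN29048_c0_g2) with a mite as best hit averaged 0.367 TPM.

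Peroxiredoxins, thiol enzymes that remove peroxides, included the most variable abundant member. Peroxiredoxin-2C-like (TRINITY_DN1675_c0_g1) stood at 25.24, 11.55 and 2.92 TPM in the controls and 23.88, 12.70 and 16.62 TPM after β-asarone. Control replicate 3 was far below the rest, and replicate 1 was the highest in both groups. Of all genes averaging 5 TPM or more with no 0, 98.0% had a smaller ratio of highest to lowest library. The log2 change of 0.74 (SE 0.68, 95% limma interval -0.90 to 2.38) ranged from 0.002 to 1.37 over the alternatives, and its lowest value was obtained without control replicate 3. Peroxiredoxin-1-like (TRINITY_DN483_c0_g1), with a soft coral as best hit, was at 14.68, 19.18 and 18.63 TPM in the controls and 13.35, 16.77 and 17.41 TPM after β-asarone. Here replicate 1 was the lowest in both groups, opposite to peroxiredoxin-2C-like. Mitochondrial peroxiredoxin-5 (TRINITY_DN13722_c0_g1), with a freshwater snail as best hit, stood at 1.77, 3.02 and 2.87 TPM and at 1.97, 1.13 and 1.76 TPM. Control replicate 1 lay among the treated values, and the log2 change was -0.43 (SE 0.23, limma adjusted p = 0.98), or -0.19 without both libraries numbered 2. An untested second peroxiredoxin-5 gene (TRINITY_DN51163_c0_g1), with a springtail as best hit, went the other way, at 0.64, 0.63 and 0.32 TPM in the controls and 0.72, 1.46 and 1.45 TPM after β-asarone.

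Mitochondrial thioredoxin (TRINITY_DN5031_c0_g1), the electron donor of mitochondrial peroxiredoxins, stood at 202.39, 191.24 and 199.80 TPM in the controls and 191.69, 207.41 and 206.29 TPM after β-asarone. Its highest library was 1.08 times its lowest, and the sign of the log2 change of 0.03 (SE 0.11, 95% limma interval -0.25 to 0.30) turned after median-of-ratios and trimmed-mean scaling. Thioredoxin reductase 2 (TRINITY_DN1168_c0_g1), which reduces it with NADPH, was at 50.60, 40.68 and 47.51 TPM in the controls and 51.58, 50.43 and 49.63 TPM after β-asarone. Control replicate 2 was the low library here. The log2 change of 0.13 (SE 0.13) was 0.04 without it, 0.20 without control replicate 1, 0.024 after median-of-ratios and 0.04 after trimmed-mean scaling. Within each library thioredoxin exceeded its reductase by 3.72 to 4.70 times. A second reductase gene (TRINITY_DN25343_c0_g1), with a rotifer as best hit and named for the NADPH-dependent thioredoxin reductase A of plants, averaged 7.52 TPM. Thioredoxin-like protein 1 (TRINITY_DN11296_c0_g1), with an abalone as best hit, was at 4.37 ± 0.618 and 3.53 ± 0.281 TPM (SD, n = 3; log2 change -0.24, SE 0.16). Thioredoxin domain-containing protein 5 (TRINITY_DN37860_c0_g1), of the secretory pathway and with an oyster as best hit, stood at 1.42, 1.60 and 1.46 TPM in the controls and 1.06, 1.16 and 0.98 TPM after β-asarone. The groups did not overlap, and its log2 change was -0.27 (SE 0.17, limma adjusted p = 0.98). Thioredoxin-like protein 4A (TRINITY_DN38374_c0_g1), a part of the spliceosome, averaged 1.02 TPM, and an untested thioredoxin-like gene (TRINITY_DN37665_c0_g1) 0.70 TPM.

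Methionine sulfoxide reductases repair oxidized methionine in proteins. The abundant one (TRINITY_DN25297_c0_g1) stood at 111.52, 85.97 and 121.71 TPM in the controls and 103.01, 111.06 and 98.17 TPM after β-asarone, with the treated values inside the control range. The log2 change of -0.02 (SE 0.17) turned to 0.02 without control replicate 1 or asarone replicate 3 and to 0.09 without control replicate 3. Reductase B1 (TRINITY_DN15724_c0_g1), which acts on the R form, was at 19.06, 7.63 and 14.48 TPM in the controls and 16.92, 12.79 and 13.45 TPM after β-asarone. Replicate 1 was the highest and replicate 2 the lowest in both groups, and the log2 change of 0.14 (SE 0.32) turned to -0.21 without control replicate 2. A gene described as free methionine-R-sulfoxide reductase (TRINITY_DN1639_c0_g1), an enzyme known from bacteria and yeast, was at 1.84 ± 0.0346 and 1.64 ± 0.352 TPM (SD, n = 3).

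Transferrin (TRINITY_DN6152_c1_g1), which carries iron in insect haemolymph, was the second most abundant member. It stood at 286.97, 354.29 and 314.68 TPM in the controls and 326.56, 372.69 and 394.87 TPM after β-asarone. Asarone replicates 2 and 3 lay above all controls and asarone replicate 1 among them, for a log2 change of 0.20 (SE 0.14, 95% limma interval -0.15 to 0.54, adjusted p = 0.98). Melanotransferrin (TRINITY_DN4477_c0_g1), a membrane-bound relative, was at 9.40, 7.93 and 10.24 TPM in the controls and 10.68, 10.46 and 10.82 TPM after β-asarone. These groups did not overlap, and the log2 change was 0.20 (SE 0.14, limma adjusted p = 0.98). Without control replicate 2 it was 0.11, and under the 3 other scalings 0.10 to 0.11. Transferrin was at a log2 change of 0.12 without control replicate 1, 0.09 after median-of-ratios and 0.10 after trimmed-mean scaling. The only genes described as ferritin, the iron-storage cage, had sea lice as best hits. Their middle subunit (TRINITY_DN52127_c0_g1) was listed at 9.36 TPM in asarone replicate 2, at 0.06 TPM in asarone replicate 1 and at 0 elsewhere, and the heavy subunit (TRINITY_DN23852_c0_g1) at 3.76, 0.06 and 0 TPM in the same order. Ferritin of the planthopper itself was thus not measured here under that name.

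The 3 pyruvate dehydrogenase regulators are not redox proteins and had best hits in a sponge, a lancelet and a soft coral. The highest of them, a phosphatase (TRINITY_DN5202_c0_g1), stood at 1.17 ± 0.201 TPM in the controls and 1.02 ± 0.181 TPM after β-asarone (SD, n = 3).

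The members divided by best hit, a division made after the values were seen. The 24 with a planthopper as best hit had a median level of 16.2 TPM, the 21 with another arthropod 1.08 TPM and the 18 with another animal 1.19 TPM. Among the tested ones, 17 of 23 with a planthopper best hit were higher in treated insects (median log2 change 0.11). Outside planthoppers, leaving out genes found in 1 library only, 18 of 21 were lower (median log2 change -0.13). The whole table showed the same division: 29.7% of 12248 tested genes with a planthopper best hit were lower, and 75.7% of 1994 with another best hit, so the members' shares lay near those of all genes of their kind.

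The division also differed between single libraries. Control replicate 2 was the lowest of the 6 libraries for 13 of 23 tested members with a planthopper best hit, and the highest for 13 of 21 with another best hit, against 57.5% and 39.5% of all tested genes of each kind. Asarone replicate 1 was the lowest library for 10 of the 21, against 44.0% of such genes. Without control replicate 2 the planthopper members split into 10 higher and 13 lower, and the others into 6 higher and 13 lower. After median-of-ratios scaling the planthopper members split into 12 higher and 11 lower, and 19 of the 21 others were lower. The manganese superoxide dismutase was the only tested member with a planthopper best hit that was highest in control replicate 2. That is 4.3% of the 23, where 7.0% of all tested genes of that kind were highest there. What these library differences contribute to the changes between groups was not tested.

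**Figure D3:**
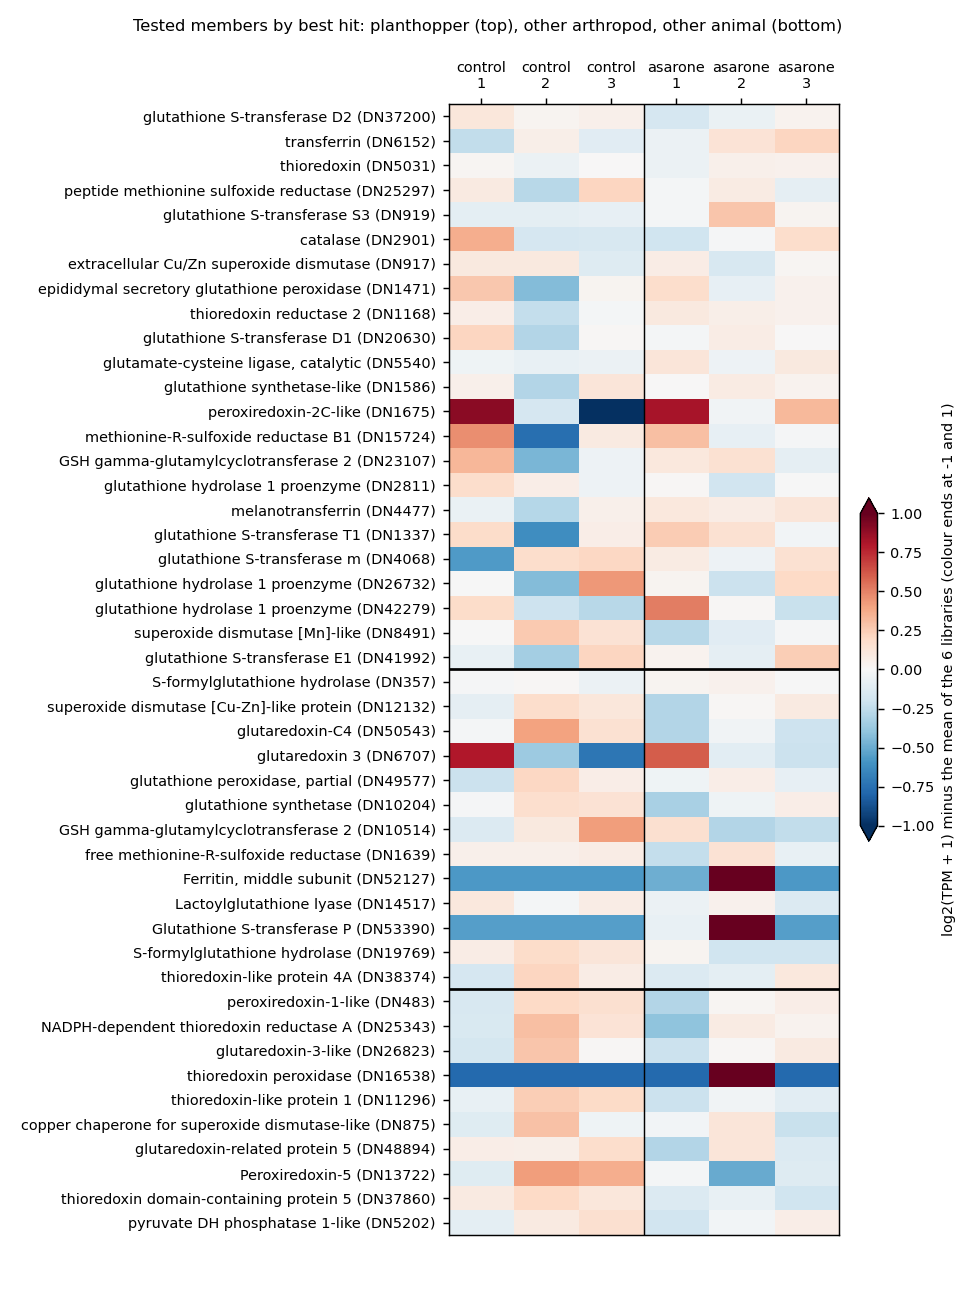
Each tested member in each library as log2(TPM + 1) minus its mean over the 6 libraries, with red above and blue below the mean and colour ending at -1 and 1. Members with a planthopper best hit (top block) are mostly blue in control replicate 2, members with other best hits (lower blocks) mostly red there, and 3 members stand out in asarone replicate 2.

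**Figure D4:**
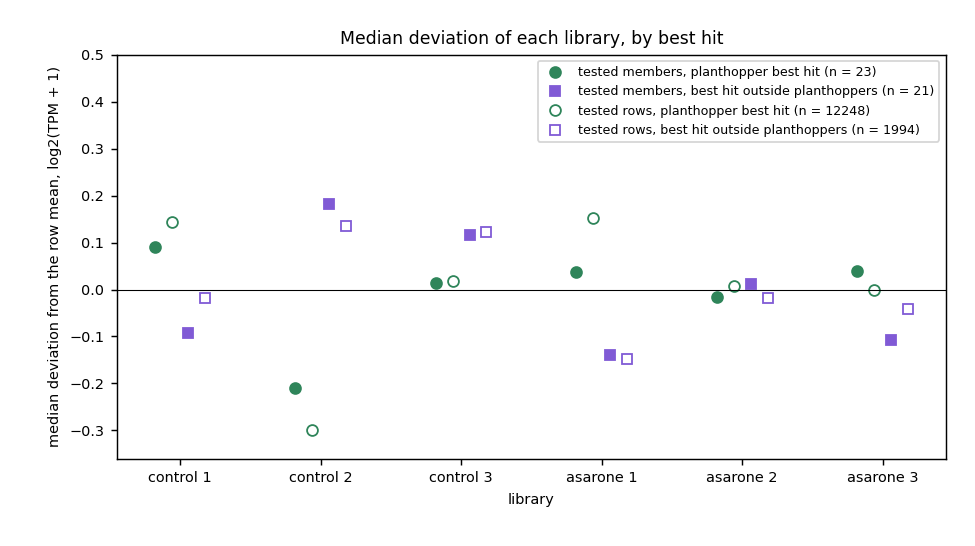
Median deviation of each library from the row mean on the log2(TPM + 1) scale, for tested members (filled) and all tested genes (open) with planthopper (green circles) and other (purple squares) best hits, leaving out genes found in 1 library only in the latter. In control replicate 2 the members stand at -0.21 and 0.18, and all genes of each kind at -0.30 and 0.14.

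Some members were ordered alike by replicate number in both groups. Replicate 1 was the highest in both groups for 10 of the 46 tested members, a share of 21.7%, against 32.8% of all tested genes. These included peroxiredoxin-2C-like, glutaredoxin 3, reductase B1, the secretory glutathione peroxidase and glutathione S-transferase T1.

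A further set of members was found in asarone replicate 2 only. Both ferritin subunits, the catalase hydroperoxidase fragment and a thioredoxin peroxidase met that definition, and glutathione S-transferase P narrowly missed it. These were 4 of the 63 members, where 560 of all 59004 listed genes met it. The thioredoxin peroxidase (TRINITY_DN16538_c0_g1), a peroxiredoxin by another name with a lancelet as best hit, was listed at 24.64 TPM in asarone replicate 2 and at 0 in the other 5 libraries. Together the 4 members summed to 41.4 TPM in that library, to 0.12 TPM in asarone replicate 1 and to 0 elsewhere. Without that library the members' sum in asarone replicates 1 and 3 was 1604 and 1747 TPM, against 1753 TPM in asarone replicate 2.

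Other genes of these pathways, listed by name, gave a like picture. Of 26 such genes 20 were tested, 0 passed the test in either direction, and 0 had an unadjusted limma p under 0.05. With the deposited scaling, 7 were higher and 13 lower, a share of 65.0% lower, against 37.2% of all tested genes. The 11 with a planthopper best hit split into 6 higher and 5 lower. All 8 with another best hit, not found in 1 library only, were lower, where 75.7% of all such tested genes were. Cap'n'collar (TRINITY_DN5585_c0_g1), the insect counterpart of the factor Nrf2 that switches on antioxidant genes, stood at 4.76, 1.93 and 3.41 TPM in the controls and 4.10, 3.11 and 3.28 TPM after β-asarone. Its treated values lay inside the control range (log2 change 0.09, SE 0.27). NADP-dependent malic enzyme (TRINITY_DN20_c0_g1), a source of the NADPH that both reductase systems use, was the most abundant, at 109.6 ± 3.24 TPM in the controls and 106.1 ± 6.66 TPM after β-asarone (SD, n = 3). Ferrochelatase (TRINITY_DN48147_c0_g1), which puts iron into haem and has a soft coral as best hit, stood at 1.40, 1.66 and 1.70 TPM and at 0.99, 1.18 and 1.04 TPM. These groups did not overlap, and its log2 change was -0.32 (SE 0.17, limma adjusted p = 0.98).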

How the data were processed

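RNA from whole insects was sequenced in 3 control and 3 asarone libraries. The authors deposited one table of 59004 assembled genes with protein descriptions and best hits. Its name refers to FPKM, but each library column has the same sum, as TPM columns do, so the deposited values were taken as TPM, and the planned test on log2(value + 1) was kept. Per the submitters' processing notes, the tools named, without a role, were DESeq2, edgeR, StringTie 1.3.4d, HISAT2 2.0.4 and cutadapt 1.9. Build and quantifier: not given in the sources used here. Read depth is unknown, so no counting interval is given.

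Members were found by words in the description and assigned to roles by ordered patterns. Best hits were sorted by hand into planthopper, other arthropod and other animal after the values were seen. The members and lists were chosen with earlier results of these data known. Genes averaging 1 TPM or more were tested with limma 3.58.1 in R 4.3.3 (trend and robust, pseudocount 1, Benjamini-Hochberg adjustment over 24816 genes, threshold 0.05). The test was checked only on data simulated with independent noise and no shifts between libraries. The planted changes were larger than that of any tested member, so how well it finds smaller ones was not checked. Intervals are 95% limma intervals, and SDs are over 3 libraries. Members given in full were the 5 higher and 5 lower ones with the smallest p and the most abundant of each role, with the second where a role had 3 or more tested members. Other members and pathway genes with values of their own were chosen after these were seen. Alternatives covered the pseudocount, the filter, 3 other scalings, limma without trend and robust, a replicate block and leaving out each library.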

Additional observations from a re-analysis of the deposited data

How the results depend on the processing

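No member passed the threshold under any alternative. The count of genes past it over the whole table was 1, and 0 with pseudocount 0.1, without the filter, with a filter at 5 TPM, under each of the 3 other scalings, among planthopper best hits only, and without any 1 library or both libraries numbered 2 (0 to 0). The alternatives with planthopper best hits and without both libraries numbered 2 were chosen after seeing the data. An unadjusted limma p under 0.05 was reached by 1 member without the filter, where 1888 of 58378 genes did so. After quantile normalization 1 member did, with 1000 of 24816 genes, and without control replicate 1 there were 2, with 1495 of 24492 genes. Under all other alternatives 0 members did.

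The libraries share only a replicate number, and the pairing was not used. After each gene's group mean was subtracted, the deviations of same-numbered libraries correlated at 0.16, 0.08 and -0.04. Those of differently numbered libraries correlated at -0.14 to 0.06. With the replicate block the count of genes past the threshold was 0.

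The members' median log2 change of -0.02 was 0.042 with a filter at 5 TPM, -0.13 after median-of-ratios, -0.11 after trimmed-mean and -0.05 after quantile scaling, 0.11 for planthopper best hits only, and -0.098 to 0.0067 with libraries left out.

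The summed glutaredoxin ratio was 0.757 with a filter at 5 TPM and 0.793 after quantile normalization. After median-of-ratios scaling, ratios were 0.788 for glutaredoxins, 0.899 for glutathione S-transferases, 0.963 for glutathione synthesis, 0.922 for other glutathione enzymes, 0.863 for superoxide dismutases, 0.971 for thioredoxins and 0.981 for thioredoxin reductases. After trimmed-mean scaling they were 0.798, 0.910, 0.974, 0.932, 0.874, 0.982 and 0.992 in the same order. Other roles were also lower after median-of-ratios scaling than with the deposited scaling. Transferrins went from 1.14 to 1.04, peroxiredoxins from 1.08 to 0.988 and glutathione peroxidases from 1.04 to 0.978. Catalases went from 0.984 to 0.925 and methionine sulfoxide reductases from 0.985 to 0.925. The thioredoxin ratio, at 1.05 with the deposited scaling, includes the thioredoxin peroxidase listed in asarone replicate 2 only.

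Of 28 members given in full, 10 changed sign in at least 1 of the 13 to 17 alternatives that gave each a value, and 18 did not. Among the 18 are TRINITY_DN16538_c0_g1, TRINITY_DN52127_c0_g1 and TRINITY_DN53390_c0_g1, with 13 alternatives each and no value without asarone replicate 2, where they are below the filter. After median-of-ratios scaling the log2 change was -0.014 for TRINITY_DN1471_c0_g1, -0.022 for TRINITY_DN1586_c0_g1, -0.065 for TRINITY_DN357_c0_g1 and -0.080 for TRINITY_DN5031_c0_g1. Trimmed-mean scaling gave -0.00038, -0.0081, -0.051 and -0.066, and quantile normalization gave -0.0027 for TRINITY_DN357_c0_g1. With libraries left out, the log2 change ranged from -0.12 to 0.15 for TRINITY_DN2901_c0_g1, -0.18 to 0.043 for TRINITY_DN26823_c0_g1, -0.10 to 0.25 for TRINITY_DN1471_c0_g1, -0.067 to 0.16 for TRINITY_DN1586_c0_g1, -0.21 to 0.085 for TRINITY_DN25297_c0_g1, -0.21 to 0.40 for TRINITY_DN15724_c0_g1, -0.13 to 0.31 for TRINITY_DN23107_c0_g1, -0.12 to 0.064 for TRINITY_DN917_c0_g1 and -0.016 to 0.065 for TRINITY_DN5031_c0_g1. The cause of these shifts was not tested.

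With 3 libraries a group and unknown depth, differences of the size seen here could not be told from the spread between libraries, and a p above the threshold does not show that levels were equal.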
